A study of Glycine max with 6 samples.

Results

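Small-molecule UDP-glycosyltransferases of soybean leaves were taken from the deposited table as the genes whose protein description named a UDP-glycosyltransferase (UGT), a hydroquinone, flavonoid, flavonol, isoflavone or anthocyanidin glucosyltransferase, a limonoid or crocetin glucosyltransferase, or a soyasaponin or soyasapogenol glycosyltransferase. Descriptions with zeatin, cytokinin or 76C were to be left out, and 0 of the matching genes held such a word. That step did not read the deposited KEGG terms, which name 3 members as cytokinin-N-glucosyltransferases. Glyma13g14190.1 and Glyma08g19000.1, both among the most highly expressed members, are among them. The rule found 161 members among 36827 genes. Of these, 154 were described as glycosyltransferases. The other 7 were coumaroyl-CoA:anthocyanidin 3-O-glucoside-6''-O-coumaroyltransferases, which are acyltransferases that met the wording through the name of their substrate, and so go against the family's name. The rule read only the descriptions and no expression value, but it was set with earlier results of these data known.

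UDP-glycosyltransferases of this kind move a sugar from a UDP-sugar, most often glucose, to a small acceptor such as a flavonoid, a phenolic acid, a hormone or a triterpenoid. The sugar makes the acceptor more soluble and lets it be stored, usually in the vacuole, or held as an inactive conjugate, and beta-glucosidases can release the acceptor again. Soybean leaves and seeds hold isoflavone glucosides, which are often further malonylated, as well as flavonol glycosides, anthocyanins and soyasaponins, and the family is large, with many recent tandem copies. Names such as 73C or 85A give a sequence subfamily, and the acceptor of a soybean enzyme cannot be read from such a name.

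RNA was sequenced from trifoliolate leaves at day 30 after germination, with 3 libraries labelled GmRAV1-ox (genotype GmRAV1) and 3 labelled DN50 (genotype wild type). GmRAV1 is a transcription factor of the AP2/ERF and B3 domain type, and the series title places it in cytokinin-dependent regeneration of roots and adventitious buds. The comparison asks which leaf transcripts differ between the labelled genotypes. The labels used here do not spell out what the ending ox stands for, and give no promoter, number of transgenic lines, or statement that the replicates were separate plants, so the p-values cover the spread among these libraries, which may be technical.

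The deposited gene counts totalled 7208496 to 7291189 in the libraries labelled GmRAV1-ox and 7396699 to 7684540 in those labelled DN50. Which gene model is GmRAV1 is not given in the sources used here, and of 4 genes described as RAV-like or TEM1-like, 3 were tested and none of them was called higher under the GmRAV1-ox label. Their estimated log2 fold changes were -0.05, -0.26 and -0.04, with adjusted p-values of 0.928, 0.673 and 0.961 in edgeR's quasi-likelihood test. The untested gene, Glyma20g32730.1, had 1.69, 3.28 and 0.28 FPKM in the libraries labelled GmRAV1-ox, against 0.13, 0.56 and 0.41 FPKM in those labelled DN50, so it was higher in replicates 1 and 2 of the GmRAV1-ox label and inside the DN50 range in replicate 3. GmRAV1-ox replicate 3 and DN50 replicate 2 each stood apart from their groups and lay near each other. The first principal component of all tested genes held 62.6% of the variance. On it, GmRAV1-ox replicate 3 lay at -16.5, against 71.6 and 100.1 for the other replicates of its label. DN50 replicate 2 lay at -10.3, against -64.0 and -81.0 for the other replicates of its label. All 33 leaf marker genes (Rubisco small chain, chlorophyll a-b binding and photosystem I proteins) were tested. Their levels were summed as scaled CPM, which are counts per library total after the TMM scaling factors. The sums were 55402 to 93747 CPM in the libraries labelled GmRAV1-ox and 69414 to 108730 CPM in those labelled DN50. These sums overlapped, and the markers' median log2 fold change was -0.59, with 0 called in edgeR's quasi-likelihood test, 0 higher and 5 lower at an unadjusted p under 0.05, and 2 called lower by DESeq2. Of all tested genes, 10.6% were higher and 10.7% lower at an unadjusted p under 0.05, and DESeq2 called 3.96% lower. Seed markers summed to 0.120 to 1.41 CPM in the libraries labelled GmRAV1-ox and 0.396 to 0.770 CPM in those labelled DN50. Root and nodule markers summed to 1293 to 2086 CPM in the libraries labelled GmRAV1-ox and 1402 to 2495 CPM in those labelled DN50, and flower and pollen markers to 80.9 to 111.7 CPM under the GmRAV1-ox label and 58.3 to 82.2 CPM under DN50. No marker gene was at 0 in all 6 libraries. The part of these shifts in the results was not tested.

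Of the 161 members, 93 held enough counts to be tested, and 3 of those were lower in the libraries labelled GmRAV1-ox while 0 were higher. The call was an adjusted p under 0.05 in edgeR's quasi-likelihood test, adjusted over all 26272 tested genes. By that rule 3.23% of the tested members were called lower, beside 0.579% of all tested genes, and 0 members were called higher, beside 0.122% of all tested genes. The 3 called genes were a 73C2-like and a 73C6-like UGT and an anthocyanidin 3-O-glucoside 2''-O-glucosyltransferase-like gene. At an unadjusted p under 0.05, 9 members (9.68%) were higher, beside 10.6% of all tested genes, and 18 members (19.4%) were lower, beside 10.7% of all tested genes. Groups did not overlap, on scaled CPM, in 10 members (10.8%) that were higher, beside 12.9% of all tested genes, and in 13 members (14.0%) that were lower, beside 13.1% of all tested genes. The shares without overlap in both directions and the share higher at an unadjusted p lay near those of all genes, and the share lower at an unadjusted p lay above it. In leaf RNA, a lower level cannot be told apart from fewer cells of a type that expresses the gene.

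The estimated log2 fold changes of the tested members, libraries labelled GmRAV1-ox over those labelled DN50, ran from -7.85 to 6.12. Their median was -0.21, beside 0.01 for all tested genes, with 35 estimates above 0 and 58 below. The median was also -0.21 with the member that had 0 counts in 1 group set to its bound, and without the coumaroyltransferases. Without scaling factors the members' median was -0.04 beside 0.20 for all genes, so the members' median stayed below that of all genes while its distance from 0 depended on the scaling. Precision was modest, with a median standard error of 0.36 for the members (range 0.15 to 1.70) and 0.261 for all tested genes.

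Summed over all 161 members, scaled CPM averaged 2068 ± 44.4 in the libraries labelled GmRAV1-ox and 2452 ± 72.9 in those labelled DN50 (SD, n = 3 each), a ratio of 0.843. The libraries did not overlap on this sum, with 2118, 2034 and 2053 CPM for replicates 1 to 3 labelled GmRAV1-ox, against 2415, 2406 and 2536 CPM for those labelled DN50. That separation depended on the scaling. Without scaling factors the sums were 2214 ± 209 CPM under the GmRAV1-ox label and 2307 ± 262 CPM under DN50 (SD, n = 3 each). The sums of FPKM (fragments per kilobase and per sequenced total) were 1653 ± 166 under the GmRAV1-ox label and 1702 ± 194 under DN50 (SD, n = 3 each). Both of these sums overlapped between the labels.

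**Figure D1:**
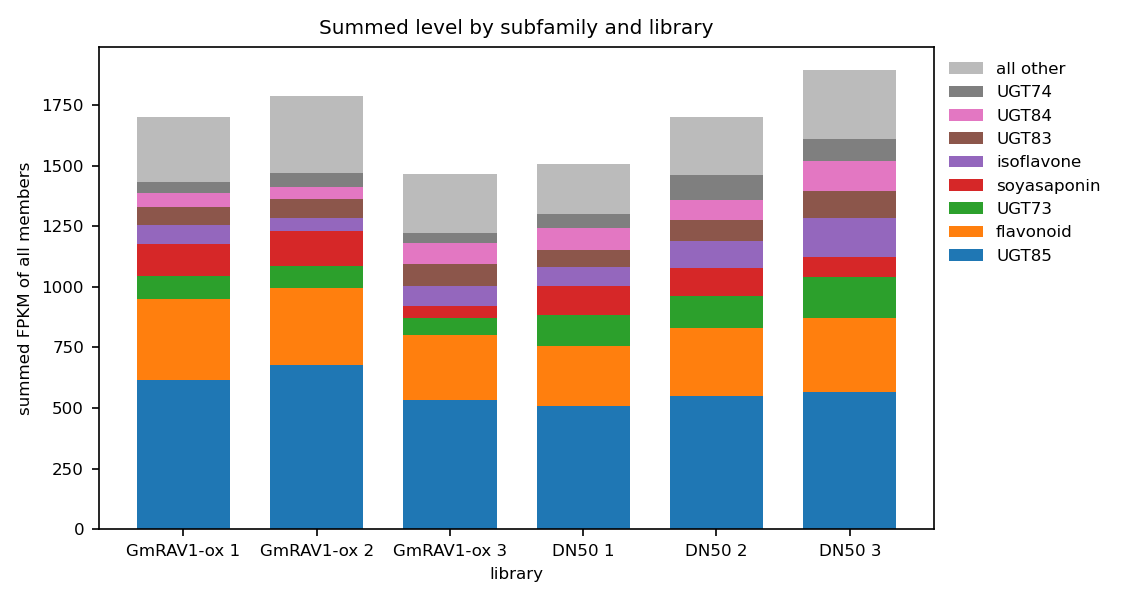
Summed FPKM of all 161 members in each library, stacked by subfamily as named in the deposited descriptions, with the libraries labelled GmRAV1-ox on the left and those labelled DN50 on the right. The totals ran from 1467 to 1788 FPKM in the libraries labelled GmRAV1-ox and from 1509 to 1896 FPKM in those labelled DN50, and UGT85 members made up the largest part of every bar.

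The family's level in the leaf rested on few genes. The 8 members with the highest mean FPKM held 708 of the 1677 FPKM that all members reached on average, or 42.2%, while 66 members averaged under 1 FPKM and 47 averaged at least 10 FPKM. The highest was Glyma13g14190.1, described as UGT 85A5-like, with 122.2, 115.7 and 138.1 FPKM in the libraries labelled GmRAV1-ox, against 151.3, 145.0 and 199.4 FPKM in those labelled DN50. Its groups did not overlap, yet its log2 fold change of -0.56 (95% interval -1.06 to -0.06) had an adjusted p of 0.197 in edgeR's quasi-likelihood test. Its counts were not whole in any of the 6 libraries, so some of its reads may be shared with another gene. Glyma19g04610.1, UGT 85A7-like, followed with 120.2, 128.9 and 134.0 FPKM in the libraries labelled GmRAV1-ox, against 108.1, 126.3 and 110.7 FPKM in those labelled DN50, and its groups overlapped. The anthocyanidin 3-O-glucoside 5-O-glucosyltransferase-like gene Glyma08g11330.1, of a kind that adds a second glucose to anthocyanins, had 111.9, 92.0 and 108.5 FPKM in the libraries labelled GmRAV1-ox, against 89.1, 111.2 and 99.9 FPKM in those labelled DN50. Its estimate was -0.11 (95% interval -0.58 to 0.35) on the log2 scale. Its deposited KEGG term differs from its description and names a UDP-glucose:(indol-3-yl)acetate beta-D-glucosyltransferase.

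**Figure D2:**
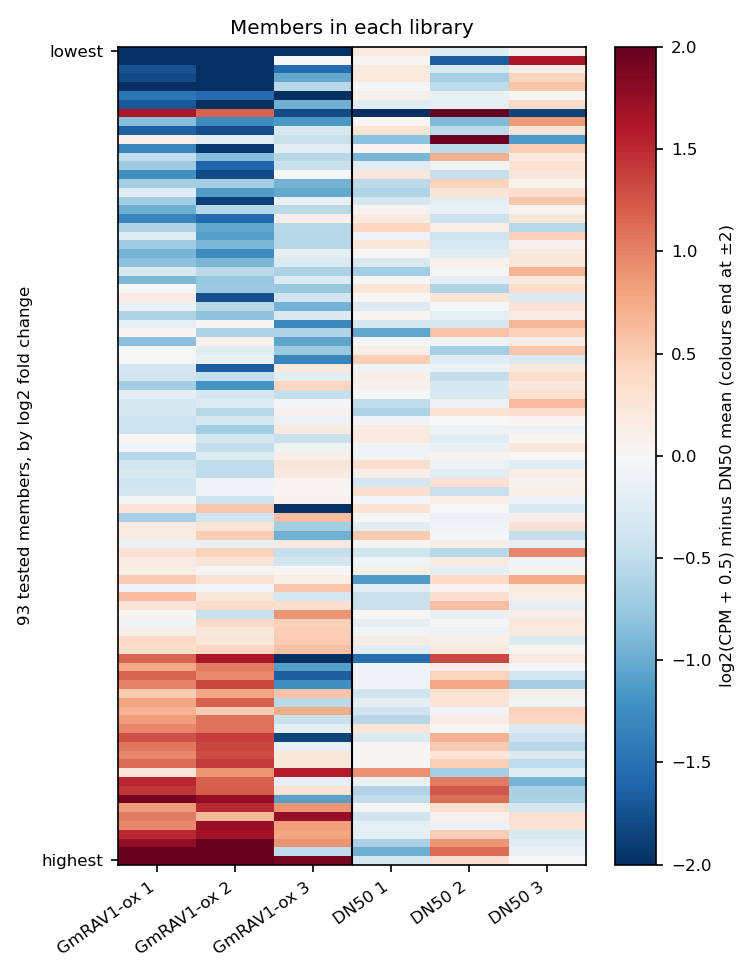
Each of the 93 tested members (rows, ordered by log2 fold change) in each library (columns, libraries labelled GmRAV1-ox on the left), as log2(CPM + 0.5) minus the mean of the DN50 libraries, with colours that end at -2 and 2. Strong colours gather at both ends of the order, and GmRAV1-ox replicate 3 is often paler than replicates 1 and 2 of its label.

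The called member with the smallest adjusted p was Glyma12g15870.1, described as anthocyanidin 3-O-glucoside 2''-O-glucosyltransferase-like. Enzymes with that name add a sugar to the glucose that an anthocyanin already carries. No count was listed for it in any of the 3 libraries labelled GmRAV1-ox, against 29, 22 and 31 counts, or 2.87, 2.26 and 3.15 FPKM, in those labelled DN50. The groups were thus fully apart, although the gene was a low one in both, ranking 92nd of the members by level. With 3 counts over the group as the floor, the level was at least 30.0-fold lower in the libraries labelled GmRAV1-ox. That bound covers counting error only and not the spread between libraries. The adjusted p was 0.0357 in edgeR's quasi-likelihood test, and the fitted log2 value of -7.85 depends on a prior count. It was the 1 gene of the whole table with at least 20 counts in each DN50 library and 0 counts in each library labelled GmRAV1-ox, and 0 genes showed the reverse, with that limit chosen after the values were seen.

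Glyma19g37100.1, described as UGT 73C2-like, was the called member with the highest level. It had 34.9, 35.2 and 18.0 FPKM in the libraries labelled GmRAV1-ox, against 81.9, 76.6 and 93.4 FPKM in those labelled DN50. Every library labelled GmRAV1-ox was below every DN50 library, with replicate 3 the lowest. On scaled CPM it averaged 40.2 ± 10.9 under the GmRAV1-ox label and 132.5 ± 12.4 under DN50 (SD, n = 3 each), so it was 3.29-fold lower. Its log2 fold change was -1.72 (SE 0.24, 95% interval -2.27 to -1.17, adjusted p = 0.0363 in edgeR's quasi-likelihood test).

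Glyma03g34420.1, described as UGT 73C6-like, fell by 2.02 on the log2 scale, or 4.07-fold. In Arabidopsis, UGT73C6 is a flavonol 7-O-glucosyltransferase. The soybean gene had 1.82, 1.36 and 1.94 FPKM in the libraries labelled GmRAV1-ox, against 6.37, 4.92 and 7.29 FPKM in those labelled DN50. The replicates of the GmRAV1-ox label lay close together and well below the DN50 libraries. Its standard error was 0.29, its 95% interval -2.70 to -1.35 and its adjusted p 0.0371 in edgeR's quasi-likelihood test. In 1 library its deposited count was not a whole number, so some of its reads may be shared with another gene.

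**Figure D3:**
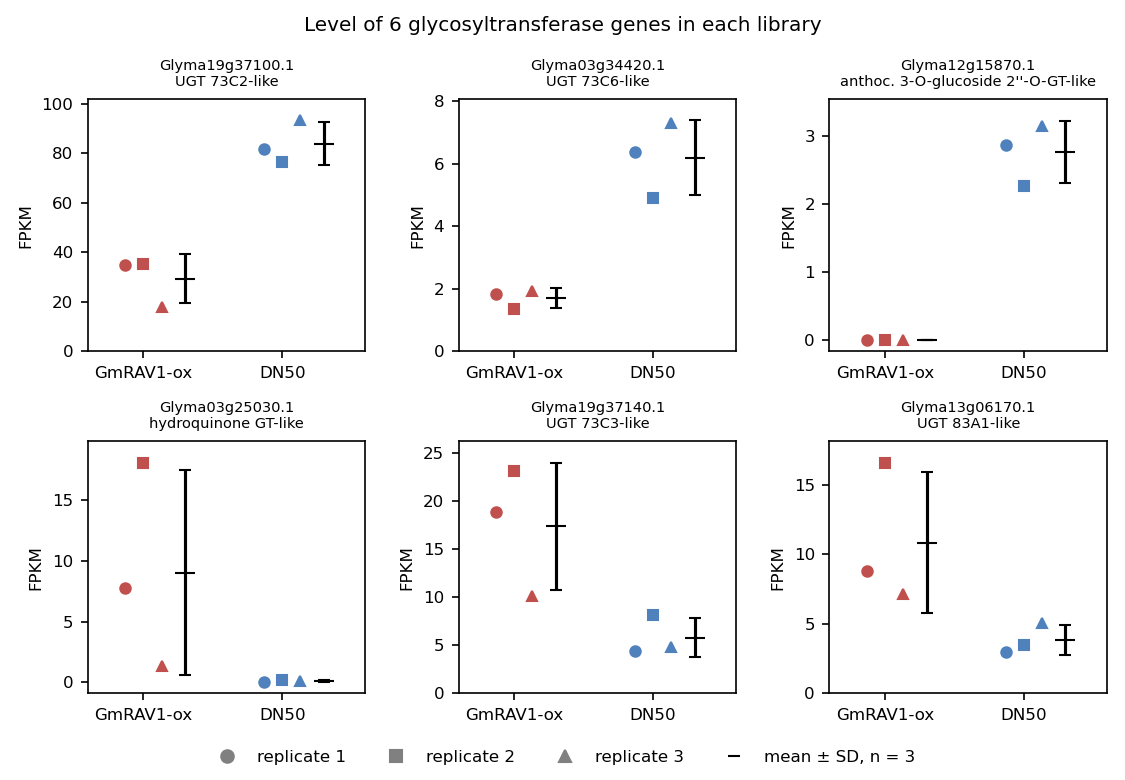
FPKM of 6 glycosyltransferase genes in each library, with a marker shape for each replicate and the mean ± SD (n = 3) beside each group, the libraries labelled GmRAV1-ox on the left of each panel. The top row shows the 3 called members, where the groups are apart with no overlap, and the bottom row shows 3 members with higher estimates in the libraries labelled GmRAV1-ox that did not pass the test, where replicate 3 lies nearest to the DN50 libraries.

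The other UGT73 members did not move as a block. Of 14 members with that subfamily name, 10 were tested, and 2 were called lower and 0 higher, beside 0.579% and 0.122% of all tested genes. The median log2 fold change of the tested UGT73 members was -0.58. Glyma19g37140.1, UGT 73C3-like, had 18.9, 23.1 and 10.2 FPKM in the libraries labelled GmRAV1-ox, against 4.37, 8.14 and 4.86 FPKM in those labelled DN50. Its groups were apart in the opposite direction from the 73C2-like gene, and its estimate of 1.38 (SE 0.31, 95% interval 0.67 to 2.09) had an adjusted p of 0.092 in edgeR's quasi-likelihood test. Glyma03g34480.1, 73C6-like, had 14.7, 6.89 and 19.6 FPKM in the libraries labelled GmRAV1-ox, against 15.0, 18.7 and 33.2 FPKM in those labelled DN50, with overlapping groups and an estimate of -0.81. Glyma19g37120.1 and Glyma19g37130.1, both described as UGT 73C6 and tied to the same reference record, had estimates of -0.42 and -0.75, and both held counts that were not whole, so reads may be split between them. Glyma03g34410.1 had 1.26, 1.96 and 1.66 FPKM in the libraries labelled GmRAV1-ox, against 2.39, 2.29 and 2.83 FPKM in those labelled DN50, and the estimates of Glyma10g07090.1, Glyma18g50980.1 and Glyma03g34470.1 were 0.20, 0.66 and 0.72.

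All 7 tested UGT74 members had estimates below 0, with a median log2 fold change of -1.22, and none was called in either direction in edgeR's quasi-likelihood test. At an unadjusted p under 0.05, 3 were lower, beside 10.7% of all tested genes. DESeq2 called 1 of them lower, Glyma19g03010.1, beside 3.96% of all tested genes. In Arabidopsis, UGT74F1 attaches glucose to salicylic acid, and the deposited KEGG terms name all 7 as pathogen-inducible salicylic acid glucosyltransferases, a term given to 31 members in all. Glyma19g03010.1, 74F1-like, had 3.60, 2.89 and 12.7 FPKM in the libraries labelled GmRAV1-ox, against 16.2, 13.04 and 29.7 FPKM in those labelled DN50. Replicate 3 of the GmRAV1-ox label lay just under the lowest DN50 library, and the estimate of -1.72 (SE 0.64, 95% interval -3.26 to -0.18) had an adjusted p of 0.20 in edgeR's quasi-likelihood test. Glyma08g13230.1, also 74F1-like, had 2.55, 2.47 and 6.21 FPKM in the libraries labelled GmRAV1-ox, against 8.45, 5.33 and 9.92 FPKM in those labelled DN50, with replicate 3 inside the DN50 range. Glyma18g48230.1, 74E1-like, had 2.83, 2.22 and 2.01 FPKM in the libraries labelled GmRAV1-ox, against 4.37, 2.48 and 9.68 FPKM in those labelled DN50, and DN50 replicate 3 was far above the rest.

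The UGT74 count of estimates below 0 includes values that rested on 1 library. Glyma02g03420.1, 74B1-like, had 8.94, 6.94 and 0.42 FPKM in the libraries labelled GmRAV1-ox, against 0.20, 44.0 and 0.40 FPKM in those labelled DN50. Its estimate was -1.65 with a standard error of 1.70, and it turned to 3.88 without DN50 replicate 2. Glyma01g04250.1, the other 74B1-like gene, was also highest in DN50 replicate 2, with 1.53, 1.24 and 0.82 FPKM in the libraries labelled GmRAV1-ox, against 0.48, 5.83 and 0.40 FPKM in those labelled DN50. The remaining genes of the subfamily, Glyma16g27440.1 and Glyma19g03000.1, had estimates of -0.52 and -0.22 with intervals that span 0.

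Isoflavone 7-O-glucosyltransferases attach glucose to isoflavones such as daidzein and genistein, and all 5 tested genes of 7 had estimates below 0, with a median of -0.82 and none called in edgeR's quasi-likelihood test. At an unadjusted p under 0.05, 2 were lower, beside 10.7% of all tested genes, and DESeq2 called 0. Glyma16g29400.1, the highest, had 23.2, 16.4 and 44.3 FPKM in the libraries labelled GmRAV1-ox, against 47.1, 35.8 and 77.4 FPKM in those labelled DN50. Replicates 1 and 2 of the GmRAV1-ox label were below every DN50 library and replicate 3 was inside the DN50 range, with an estimate of -1.05 (SE 0.46) and an adjusted p of 0.244 in edgeR's quasi-likelihood test. Glyma16g29330.1 had 6.53, 6.94 and 4.80 FPKM in the libraries labelled GmRAV1-ox, against 5.70, 12.9 and 10.5 FPKM in those labelled DN50, so the groups overlapped on FPKM, although they did not on scaled CPM. Glyma16g29370.1 and Glyma16g29340.1 had estimates of -0.82 and -0.53, and Glyma09g23600.1 of -0.35. The 4 tested genes of this group on chromosome 16 by their identifiers held counts that were not whole in 5 or 6 of the 6 libraries, so their separate values are uncertain.

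**Figure D4:**
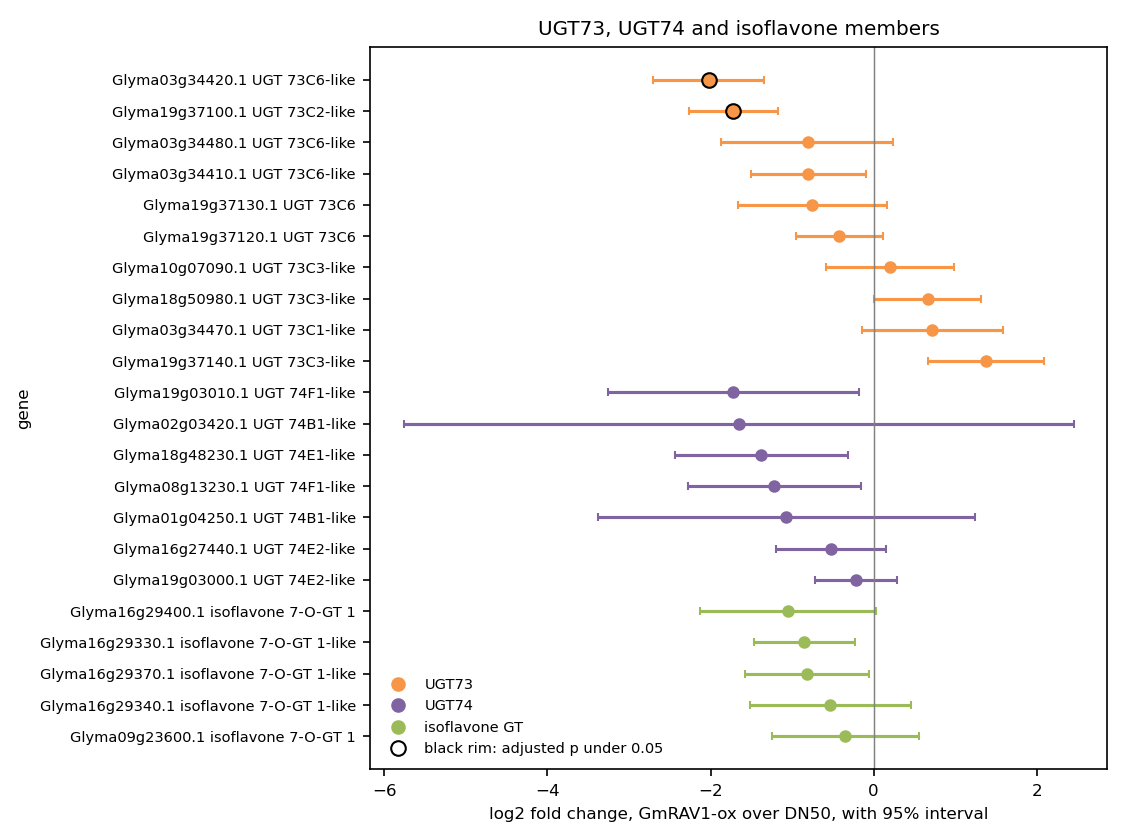
Estimated log2 fold change, libraries labelled GmRAV1-ox over those labelled DN50, with its 95% interval for the tested UGT73, UGT74 and isoflavone 7-O-glucosyltransferase members. UGT73 estimates run from -2.02 to 1.38 on both sides of 0, while the 7 UGT74 and 5 isoflavone estimates are all below 0, and 7 of those 12 intervals include 0.

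Of 31 flavonoid and anthocyanidin glycosyltransferases, 14 were tested, and apart from the 2''-O-glucosyltransferase-like gene above none was called in edgeR's quasi-likelihood test. Their median was -0.31. The flavonoid 3-O-glucosyltransferase 7-like genes Glyma17g02270.1 and Glyma17g02280.1, neighbours in the reference, shared a pattern. Glyma17g02270.1 had 17.8, 12.99 and 38.1 FPKM in the libraries labelled GmRAV1-ox, against 39.2, 27.3 and 46.8 FPKM in those labelled DN50, and Glyma17g02280.1 had 5.97, 5.43 and 14.8 FPKM under the GmRAV1-ox label, against 13.9, 10.1 and 17.2 FPKM under DN50. In both, replicates 1 and 2 of the GmRAV1-ox label were below every DN50 library and replicate 3 was not. Glyma10g33790.1, anthocyanidin 3-O-glucosyltransferase-like, had 60.5, 81.7 and 6.40 FPKM in the libraries labelled GmRAV1-ox, against 3.98, 20.3 and 8.77 FPKM in those labelled DN50, so its estimate of 1.94 (SE 0.90, adjusted p = 0.275 in edgeR's quasi-likelihood test) came with replicate 3 inside the DN50 range. Glyma16g03760.1 and Glyma13g32910.1 were likewise high in replicates 1 and 2 of that label and below every DN50 library in replicate 3, at 31.3, 29.4 and 3.68 FPKM for Glyma16g03760.1 and 16.3, 21.3 and 3.73 FPKM for Glyma13g32910.1 in replicates 1 to 3 labelled GmRAV1-ox, where the DN50 libraries ran from 10.01 to 16.8 FPKM and from 6.92 to 9.11 FPKM.

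UGT85 was the most highly expressed subfamily, with 20 members, 14 tested and none called in either direction in edgeR's quasi-likelihood test. At an unadjusted p under 0.05, 3 were higher and 3 lower, beside 10.6% and 10.7% of all tested genes. DESeq2 called 2 in each direction, beside 2.5% higher and 3.96% lower of all tested genes. The subfamily summed to 614.2, 678.9 and 531.4 FPKM in the libraries labelled GmRAV1-ox, against 508.8, 550.8 and 565.6 FPKM in those labelled DN50. Its median estimate was 0.41, above that of all tested genes, with 8 estimates above 0 and 6 below. Glyma08g19000.1, 85A7-like, had 166.7, 220.0 and 80.02 FPKM in the libraries labelled GmRAV1-ox, against 61.7, 95.3 and 50.8 FPKM in those labelled DN50. Replicates 1 and 2 of the GmRAV1-ox label were above every DN50 library and replicate 3 was among them, and the estimate was 0.94 (SE 0.36, adjusted p = 0.193 in edgeR's quasi-likelihood test). Glyma19g04570.1, 85A7-like, had 18.7, 15.6 and 27.9 FPKM in the libraries labelled GmRAV1-ox, against 5.30, 8.52 and 10.6 FPKM in those labelled DN50, with groups apart, an estimate of 1.22 (SE 0.32) and an adjusted p of 0.112 in edgeR's quasi-likelihood test. Glyma13g01690.1, 85A2-like, also had groups apart, at 6.54, 11.4 and 6.01 FPKM in the libraries labelled GmRAV1-ox and 2.78, 3.95 and 2.47 FPKM in those labelled DN50.

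The 3 UGT85 genes that were lower at an unadjusted p under 0.05 were all described as 85A5-like, and Glyma13g14190.1, the highest member, was 1 of them. Glyma01g02670.1 had 7.21, 4.97 and 11.4 FPKM in the libraries labelled GmRAV1-ox, against 24.2, 14.6 and 34.0 FPKM in those labelled DN50, with groups apart and an estimate of -1.77 (SE 0.42, adjusted p = 0.106 in edgeR's quasi-likelihood test). Glyma02g25930.1 had 39.1, 37.3 and 39.2 FPKM in the libraries labelled GmRAV1-ox, against 60.4, 46.7 and 64.8 FPKM in those labelled DN50, an estimate of -0.75 (SE 0.20). Its counts were not whole in any of the 6 libraries. Glyma20g05700.1, UGT 85A2, was high in replicates 1 and 2 labelled GmRAV1-ox at 24.9 and 24.1 FPKM but at 2.48 FPKM in replicate 3, against 3.45, 12.6 and 3.73 FPKM in the libraries labelled DN50.

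Hydroquinone glucosyltransferase-like genes numbered 17, of which 7 were tested and none called in edgeR's quasi-likelihood test, with a median estimate of 0.47. At an unadjusted p under 0.05, 2 were higher and 1 lower, beside 10.6% and 10.7% of all tested genes. DESeq2 called 1 higher, Glyma03g25030.1, beside 2.5% of all tested genes. Enzymes of that name glucosylate hydroquinone and other phenols. Glyma03g25030.1 had the largest positive estimate of all members, with 7.77, 18.0 and 1.32 FPKM in the libraries labelled GmRAV1-ox, against 0, 0.20 and 0.10 FPKM in those labelled DN50. Its groups were apart, and all 3 values of the GmRAV1-ox label differed widely from each other. The summed counts were 266 under the GmRAV1-ox label and 3 under DN50, a ratio of 80.8 relative to the scaled totals with a 95% counting interval of 27.3 to 394.2, which covers counting error only. The adjusted p was 0.0798 in edgeR's quasi-likelihood test, and 0.00164 without GmRAV1-ox replicate 3. Glyma03g25020.1, its neighbour in the reference, had 21.3, 29.6 and 11.4 FPKM in the libraries labelled GmRAV1-ox, against 8.67, 11.5 and 8.31 FPKM in those labelled DN50, and an estimate of 0.91 (SE 0.29, adjusted p = 0.147 in edgeR's quasi-likelihood test).

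Soyasaponin glycosyltransferases lengthen the sugar chain of soybean's triterpenoid saponins, the galactosyltransferase adding galactose to soyasapogenol B glucuronide and the rhamnosyltransferase then adding rhamnose. Of 10 such members 6 were tested, with 3 estimates above 0, 3 below and none called in edgeR's quasi-likelihood test or by DESeq2. At an unadjusted p under 0.05, 1 was lower, beside 10.7% of all tested genes. That gene, Glyma10g16790.1, soyasaponin III rhamnosyltransferase-like, had 28.8, 23.2 and 26.8 FPKM in the libraries labelled GmRAV1-ox, against 47.1, 43.3 and 28.3 FPKM in those labelled DN50, and an estimate of -0.79. Glyma08g19290.1, described as the soyasaponin III rhamnosyltransferase itself, had 33.8, 46.4 and 6.18 FPKM in the libraries labelled GmRAV1-ox, against 12.5, 25.6 and 9.69 FPKM in those labelled DN50. The galactosyltransferase-like genes Glyma15g34720.1, Glyma11g05680.1 and Glyma18g43980.1 were at 14.2, 1.62 and 0.49 FPKM in GmRAV1-ox replicate 3. In all 4 of these genes that library was the lowest of the 6.

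UGT83 members, all described as 83A1-like, differed among themselves as UGT73 members did. Of 14, 6 were tested, with 3 estimates above 0, 3 below and none called in edgeR's quasi-likelihood test. At an unadjusted p under 0.05, 1 was higher and 2 lower, beside 10.6% and 10.7% of all tested genes. DESeq2 called 1 in each direction, beside 2.5% higher and 3.96% lower of all tested genes. Glyma13g06170.1 had 8.77, 16.6 and 7.16 FPKM in the libraries labelled GmRAV1-ox, against 2.97, 3.50 and 5.08 FPKM in those labelled DN50, an estimate of 1.29 (SE 0.30, adjusted p = 0.0981 in edgeR's quasi-likelihood test). Glyma08g26830.1 had 8.33, 4.16 and 12.7 FPKM in the libraries labelled GmRAV1-ox, against 18.7, 21.9 and 35 FPKM in those labelled DN50, an estimate of -1.71 (SE 0.44, adjusted p = 0.112 in edgeR's quasi-likelihood test). Groups were apart in both, in opposite directions. Glyma19g03600.1, the highest of them in the libraries labelled GmRAV1-ox, had an estimate of 0.16.

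Smaller subfamilies gave 1 to 4 tested members each. Glyma10g40900.1, 84B1-like, of which the Arabidopsis namesake attaches glucose to indole-3-acetic acid, had 58.1, 49.99 and 86.5 FPKM in the libraries labelled GmRAV1-ox, against 89.7, 83.7 and 121.6 FPKM in those labelled DN50, and replicate 3 reached into the DN50 range. Its estimate was -0.74 (SE 0.29). The UGT 89B1-like gene Glyma06g22820.1 had 3.67, 4.75 and 1.65 FPKM in the libraries labelled GmRAV1-ox, against 0.29, 1.61 and 0.60 FPKM in those labelled DN50, an estimate of 1.80 (SE 0.59). The other UGT89 genes, Glyma06g40390.1 and Glyma01g09160.1, had estimates of -0.90 and -0.57. Glyma03g22640.1, 72B1-like, had 8.45, 8.35 and 8.32 FPKM in the libraries labelled GmRAV1-ox, against 5.65, 6.27 and 4.94 FPKM in those labelled DN50, with groups apart and an estimate of 0.39 (95% interval -0.09 to 0.86). Glyma02g44100.1, 92A1-like, had 9.88, 12.0 and 14.0 FPKM in the libraries labelled GmRAV1-ox, against 14.7, 14.8 and 20.5 FPKM in those labelled DN50, an estimate of -0.64 (SE 0.21). None of these 6 genes was called in edgeR's quasi-likelihood test.

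The remaining named members had estimates near 0 or wide intervals, and none was called in edgeR's quasi-likelihood test. The UGT87 genes, 4 tested, had estimates from -0.36 to -0.05, and the UGT88 genes Glyma06g47890.1 and Glyma16g29430.1 had -0.21 and -0.05. Glyma02g39090.1 (71D1-like) had 0.04 and Glyma02g39080.1 (71C3-like) had -0.17. Glyma16g08060.1 (90A1-like) had 0.28, Glyma18g29100.1 (91A1-like) -0.03, Glyma11g34730.1 (76F1-like) -0.32 and Glyma14g00550.1 (82A1) -0.61. Glyma06g35110.1, 79B3-like, spread widely within both labels, with 11.5, 17.5 and 0.21 FPKM in the libraries labelled GmRAV1-ox, against 1.17, 11.5 and 5.30 FPKM in those labelled DN50. Glyma20g26420.1, the 1 limonoid glucosyltransferase-like gene, had 0.20, 0 and 2.59 FPKM in the libraries labelled GmRAV1-ox, against 2.34, 0.58 and 9.23 FPKM in those labelled DN50, so its estimate of -2.18 had a standard error of 1.35.

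**Figure D5:**
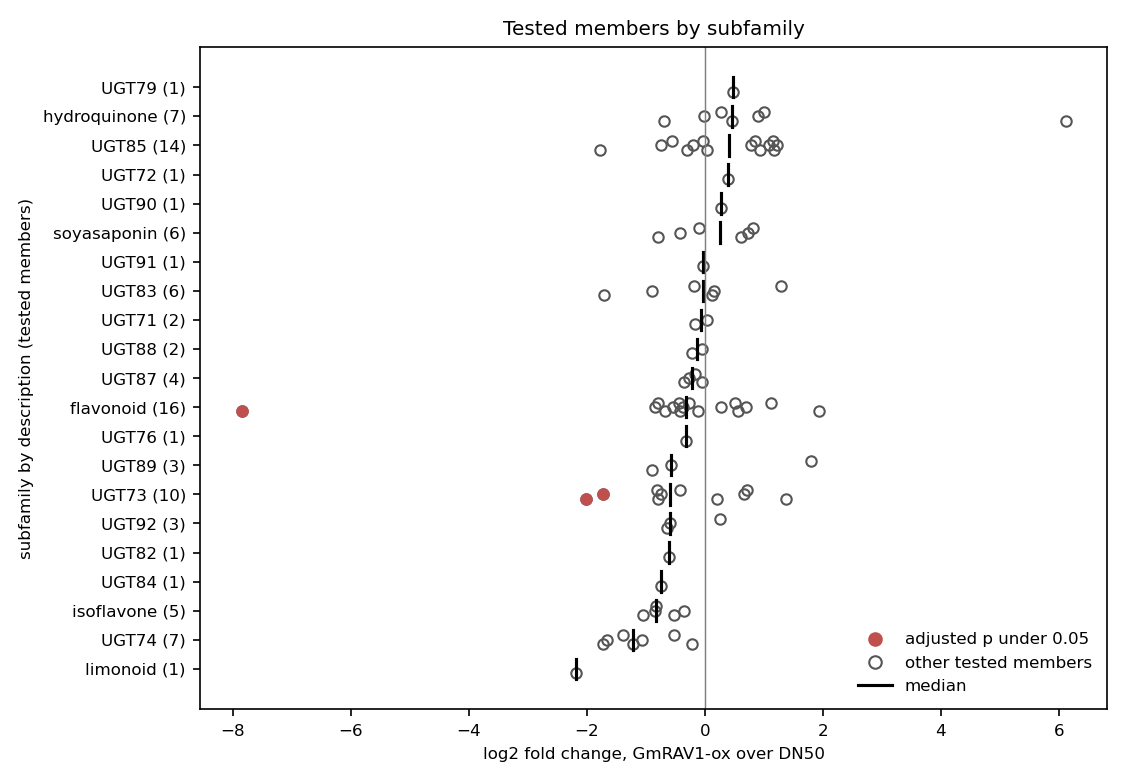
Log2 fold change, libraries labelled GmRAV1-ox over those labelled DN50, of each of the 93 tested members by subfamily, with filled points for the 3 called members and a bar for each subfamily's median. Medians run from -2.18 for the single limonoid gene to 0.48 for the single UGT79 gene, and in UGT73, UGT83, UGT85 and the flavonoid group the points spread to both sides of 0.

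The number of called members depended on GmRAV1-ox replicate 3. Without it 102 members were tested. Of these, 16 (15.7%) were called higher, beside 8.62% of all genes tested there. Another 17 (16.7%) were called lower, beside 9.66% of all genes, the 3 called members among them. Those 16 included Glyma03g25030.1, Glyma19g37140.1, Glyma13g06170.1, Glyma08g19000.1 and Glyma10g33790.1, and the 17 included Glyma19g03010.1 (log2 fold change -2.84), Glyma08g13230.1 (-1.92), Glyma08g26830.1 (-2.25), Glyma01g02670.1 (-2.25), Glyma16g29400.1 (-1.68), Glyma17g02270.1 (-1.56) and Glyma10g40900.1 (-1.12). In 7 members (7.53%) replicates 1 and 2 of that label were above the DN50 range on scaled CPM and replicate 3 inside it, and in 11 members (11.8%) they were below it and replicate 3 inside. The same patterns held in 9.58% and 9.53% of all tested genes, so the members' shares of these patterns, unlike their called shares, lay near the background.

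Calls also depended on the test and on each other library. Without DN50 replicate 2, 2 members (1.98%) were called lower, beside 0.545% of all genes tested there. With any 1 of the other 4 libraries left out, 0 members were, beside 0.0% of all genes in each of the 4. DESeq2 called 5 members higher (5.38%, beside 2.5% of all genes) and 7 lower (7.53%, beside 3.96%). With the replicate number as a block, edgeR called 6 higher (6.45%, beside 2.6%) and 8 lower (8.6%, beside 3.57%). The count of members called lower was 3 without scaling factors (3.23%, beside 0.567% of all genes) and without the count filter (1.86%, beside 0.628%). It was also 3 with a filter at a mean of 1 FPKM (3.06%, beside 0.371%), without robust estimation (3.23%, beside 0.476%) and with limma on log2(FPKM + 1) (3.23%, beside 0.461%). It was 1 with limma on log2(FPKM + 0.1) (1.08%, beside 0.339%) and 0 with limma and no filter (0.0%, beside 0.0136%). Each of the 3 called members passed in 9 of the 15 alternatives, and the highest adjusted p over them was 0.222 for Glyma12g15870.1 and Glyma03g34420.1 and 0.215 for Glyma19g37100.1.

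Too few counts kept 68 members from being tested, and 53 of these had under 10 counts in every library. Among the other 15, Glyma14g04790.1 (92A1-like) had 2.99, 3.51 and 0.88 FPKM in the libraries labelled GmRAV1-ox, against 0.37, 0.95 and 0.85 FPKM in those labelled DN50. Glyma01g21620.1 (83A1-like) had 2.29, 1.69 and 0.63 FPKM in the libraries labelled GmRAV1-ox, against 0, 0.72 and 0.30 FPKM in those labelled DN50. Glyma12g14050.1, described like the called Glyma12g15870.1, had 0.10, 0.52 and 0.94 FPKM in the libraries labelled GmRAV1-ox, against 3.12, 1.12 and 1.00 FPKM in those labelled DN50. In Glyma12g14050.1 the groups did not overlap on FPKM, but replicate 3 of the GmRAV1-ox label and DN50 replicate 3 lay next to each other. Both 72E1-like genes, Glyma11g06880.1 and Glyma01g38430.1, stayed at or under 0.18 FPKM in every library, and UGT72E enzymes of Arabidopsis glucosylate lignin precursors.

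Many members lie beside one another in the genome. In the RefSeq gene table for Glycine_max_v4.0, 137 members matched a record by identifier, and 108 could be placed with a record of their own. Of those, 46 fell in 20 runs with at most 1 other gene between neighbours, the longest of 4 members. In 11 runs at least 2 members were tested, and in 4 of them the tested neighbours had estimates of both signs. Glyma03g34420.1, the called 73C6-like gene, lies in a run of 4 with Glyma03g34410.1, Glyma03g34440.1 and Glyma03g34460.1. Its tested neighbour Glyma03g34410.1 had an estimate of -0.80, while Glyma03g34440.1 and Glyma03g34460.1 averaged 0.227 and 0.0333 FPKM in the libraries labelled GmRAV1-ox and 0 FPKM in those labelled DN50. Glyma19g04570.1 lies beside Glyma19g04610.1, and their estimates were 1.22 and -0.03. The counts of both were not whole in any of the 6 libraries, so some reads may be shared with another gene and the contrast is uncertain. Glyma19g03010.1 lies beside Glyma19g03000.1, with estimates of -1.72 and -0.22, and the neighbours Glyma05g28330.1 and Glyma05g28340.1, both 5-O-glucosyltransferase-like, had 0.27 and -0.68.

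Genes that act before and after glycosylation were read from the same fit. Of 13 genes described as malonyltransferases, which acylate the sugar of phenolic glucosides, 9 were tested. Of these, 1 was called lower and 0 higher, beside 0.579% and 0.122% of all tested genes. That gene, Glyma13g06230.1, is described as malonyl-CoA:isoflavone 7-O-glucoside-6''-O-malonyltransferase. It had 14.3, 12.7 and 13.6 FPKM in the libraries labelled GmRAV1-ox, against 20.2, 26.9 and 32.7 FPKM in those labelled DN50, with groups apart. It fell by 1.14 on the log2 scale (SE 0.18), with an adjusted p of 0.045 in edgeR's quasi-likelihood test. The call passed in 1 of 6 fits that left out a library, with adjusted p-values from 0.00571 to 0.237.

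Of 79 genes for the flavonoid skeleton, 44 were tested and 0 were called in either direction in edgeR's quasi-likelihood test, with 3 higher and 4 lower at an unadjusted p under 0.05 and 2 called lower by DESeq2. For these and the following lists, the shares over all tested genes at an unadjusted p under 0.05 were 10.6% higher and 10.7% lower. DESeq2 called 2.5% of all tested genes higher and 3.96% lower, and edgeR called 0.122% and 0.579%. Isoflavone synthase makes the isoflavone skeleton that the 7-O-glucosyltransferases use. Glyma07g32340.1, isoflavone synthase 1, had 14.0, 6.18 and 17.0 FPKM in the libraries labelled GmRAV1-ox, against 29.9, 28.9 and 43.9 FPKM in those labelled DN50, and Glyma13g24200.1, 2-hydroxyisoflavanone synthase, had 15.3, 7.25 and 24.98 FPKM under the GmRAV1-ox label, against 32.7, 39.2 and 60.8 FPKM under DN50. Groups were apart in both, chosen after their values were seen, with estimates of -1.60 and -1.59 and adjusted p-values of 0.107 and 0.144 in edgeR's quasi-likelihood test. UDP-sugar supply genes had 30 tested, 0 called by either tool and a median of 0.28, with 1 higher and 1 lower at an unadjusted p under 0.05. Of 118 genes with beta-glucosidase in the description, 58 were tested, 0 were called and the median was 0.39, with 17 higher and 5 lower at an unadjusted p under 0.05 and 7 and 4 called by DESeq2. Without the glucan endo-beta-glucosidases that share the wording, 15 were tested, with a median of -0.04, and 1 was higher and 3 were lower both at an unadjusted p under 0.05 and by DESeq2. The 19 other glycosyltransferases, outside the rule, had 9 tested, 0 called and a median of -0.09, with 1 higher and 3 lower at an unadjusted p under 0.05 and 3 called lower by DESeq2. These counts too depended on GmRAV1-ox replicate 3, without which edgeR called 0 higher and 4 lower of 9 malonyltransferases, 8 higher and 9 lower of 50 flavonoid skeleton genes, and 6 higher and 0 lower of 30 UDP-sugar supply genes. In the same fit it called 24 higher and 7 lower of 70 genes with beta-glucosidase in the description, and 4 higher and 3 lower of 13 other glycosyltransferases. Of all genes tested in that fit, 8.62% were called higher and 9.66% lower.

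Over the 6 libraries, the tested genes with the pattern most like that of Glyma12g15870.1 had Pearson correlations of log2 CPM from 0.993 to 0.997, where a difference between the labels alone gives high values. They were Glyma10g37000.1 (protein FAM188A-like), Glyma03g40430.1 (benzyl alcohol O-benzoyltransferase-like), Glyma08g10360.1 (an F-box/kelch-repeat protein), Glyma05g35170.1 (uncharacterized) and Glyma17g10920.1 (cyclic dof factor 3). The highest correlation was that of Glyma10g37000.1, which had 15.9, 17.5 and 14.4 FPKM in the libraries labelled GmRAV1-ox, against 15.5, 16.7 and 18.4 FPKM in those labelled DN50. Its groups overlapped on FPKM, although they did not on scaled CPM. Its log2 fold change was -0.27 and its adjusted p was 0.294 in edgeR's quasi-likelihood test, so a high correlation here did not require a large difference. Glyma08g10360.1 and Glyma05g35170.1 had estimates of -0.64 and -0.73, with adjusted p-values of 0.193 and 0.0635 in the same test. Glyma03g40430.1 and Glyma17g10920.1 were called lower, with estimates of -2.51 and -2.33 and adjusted p-values of 0.0118 and 0.032 in edgeR's quasi-likelihood test. Glyma03g40430.1 had 13.8, 14.5 and 9.89 FPKM in the libraries labelled GmRAV1-ox, against 60.0, 55.7 and 74.4 FPKM in those labelled DN50.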

How the data were processed

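The authors sequenced leaf RNA on an Illumina instrument, per the labels. Each library table holds an expected count, which is an estimated count of reads per gene, as deposited by the authors, beside a coding length and the authors' FPKM value, and a series table adds protein descriptions and KEGG terms. The submitters' processing notes list TopHat and Cufflinks. No source used here gives their versions, the genome build, the annotation or any use of strand. About 30% of the counts above 0 were not whole (29.6% to 30.5% per library), and such genes may share reads. Counting precision follows totals of 7208496 to 7684540 counts per library.

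Counts were rounded and genes unlisted in a library set to 0. In R 4.3.3, edgeR 4.0.16 filtered genes with filterByExpr, leaving 26272 of 36827, scaled libraries by TMM (factors 0.849 to 1.17) and ran the 2-sided quasi-likelihood test with robust estimation and Benjamini-Hochberg adjustment over all tested genes, across all 6 libraries. Intervals are 95% intervals from the fitted value and its standard error. Scaled CPM are counts per library total after the TMM factors, while the deposited FPKM carries no such factor. DESeq2 1.42.0 and limma 3.58.1 were alternatives. The fitting steps were tested on simulated counts with the same dispersion for every gene and no library apart from its group. That setting is simpler than these data. No pathway or gene list was given a test of its own.

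The members and lists were chosen with earlier results of these data known. Named genes are the called members, the 8 largest and 8 smallest log2 fold changes with a mean of at least 1 FPKM in the higher group, the 8 highest by FPKM, the smallest p in each subfamily, members of subfamilies of 3 or fewer, and untested members with at least 10 counts in a library. Of these 58, some are given only as counts. Further subfamily members, named beside them, were chosen after their values were seen. No sequences are printed.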

Additional observations from a re-analysis of the deposited data

How the results depend on the processing

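Of the 39 tested members named by rule, 32 kept the sign of their estimate under all 15 alternatives. Members called higher numbered 5 with DESeq2, 6 with the replicate block and 0 to 16 with 1 library left out, and members called lower numbered 7 with DESeq2, 8 with the replicate block, 1 with limma on log2(FPKM + 0.1), 0 with limma and no filter, and 0 to 17 with 1 library left out. Pairing of the samples by replicate number was neither shown nor excluded. Same-numbered libraries correlated at -0.30, 0.40 and 0.30, for replicates 1 to 3, in their deviations from the group means. Between differently numbered libraries the correlations ran from -0.50 to 0.37. The lowest was GmRAV1-ox replicate 3 with DN50 replicate 2, and the highest was GmRAV1-ox replicate 1 with DN50 replicate 2. Deviations from a mean of 3 libraries constrain one another, so no conclusion on pairing was drawn from these correlations. The members' median log2 fold change was -0.04 without scaling factors, -0.03, -0.04 and 0.01 with limma (pseudocount 1, pseudocount 0.1, no filter), and -0.30 to -0.17 with 1 library left out, while the median of all tested genes was 0.20, 0.17, 0.19 and 0.14 in the first 4 of these. The ratio of summed levels was 0.960 without scaling factors, 0.971 on FPKM, and 0.833 to 0.858 with 1 library left out. The cause of these shifts was not tested. With 7 coumaroyltransferases removed, 3 members stayed called, and among the 74 tested members with whole counts in every library 2 did.

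Signs turned in 7 members, none of them called. Glyma19g04610.1 had 0.16 without scaling factors, 0.15 in all 3 limma fits and -0.16 to 0.03 with a library left out. Glyma08g11330.1 had 0.06 without scaling factors and in all 3 limma fits and -0.24 to 0.03 with a library left out. Glyma18g29100.1 had 0.22 without scaling factors, 0.08 in all 3 limma fits and -0.35 to 0.27 with a library left out. Glyma02g39080.1 had 0.01 without scaling factors and 0.01, 0.03 and 0.01 with limma (pseudocount 1, 0.1, no filter). Glyma02g03420.1 had 0.19, 0.77 and 0.19 in the same limma fits and -2.25 to 3.88 with a library left out, the highest without DN50 replicate 2. Glyma06g35110.1 had -0.11 with limma and pseudocount 0.1 and -0.17 to 1.36 with a library left out. Glyma02g39090.1 had -0.06 to 0.08 with a library left out.

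Depth limited the low members: 68 of 161 held too few counts to be tested. The median standard error of the tested members was 0.36 on the log2 scale with 3 libraries a label. GmRAV1-ox replicate 3 and DN50 replicate 2 each stood apart from the other libraries of their label on the first principal component.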
